A study of Mus musculus with 22 samples.

Results

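The genes described here were the 2 corticosteroid receptors of the mouse and 8 genes of the Hsp90 machinery that folds them. They were picked by symbol and not by their values, though with earlier results of these data known. The receptors were Nr3c1 (glucocorticoid receptor) and Nr3c2 (mineralocorticoid receptor). The chaperones were Hsp90aa1, Hsp90ab1, Hsp90b1 and Hspa8, and the co-chaperones were Ptges3, Stip1, Cdc37 and Ahsa1. All 10 symbols were found among the 17306 genes of the deposited table, and all 10 passed the filter on low values that left 16765 genes for testing.

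RNA had been sequenced from the lumbar (L4-L6) spinal cord, on the side of the injected knee, of 22 C57BL6J wildtype mice aged 12 to 14 weeks. Each mouse had received 1 mg of monoiodoacetate (MIA) in the knee, a chemical model of joint pain, so no comparison here involves an animal without MIA. SAFit2, a selective inhibitor of the Hsp90 co-chaperone FKBP51, was injected in a slow-release phospholipid gel at 100 mg/kg, and vehicle mice received the gel alone. Early mice were injected on days -3 and 4 relative to MIA, and late mice on days 20 and 27. Tissue was collected on day 30 from 5 Early_SAFit2, 6 Early_Vehicle, 5 Late_SAFit2 and 6 Late_Vehicle mice. The sample titles of the 5 Early_SAFit2 mice read SAFit1 and their treatment label reads SAFit2, which was followed. One protocol label gives day 3 for the early injection that the study's methods place on day -3. In the labels each timing is its own batch, and what timing did cannot be told apart from what the batch did.

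The steroid receptors are held in the cytoplasm by a chaperone cycle. Hsp70 binds the newly made receptor, Stip1 (Hop) passes it to Hsp90, and Ptges3 (p23) holds the closed Hsp90 complex in which the receptor can bind its hormone. FKBP51, encoded by Fkbp5, and FKBP52, encoded by Fkbp4, then compete for that complex, and FKBP51 lowers the affinity of the glucocorticoid receptor for hormone. Cdc37 brings protein kinases to Hsp90 and Ahsa1 speeds up its ATPase. Hsp90b1 (GRP94) works inside the endoplasmic reticulum and has clients of its own there.

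Libraries held between 11352989 and 24433349 reads on genes, and the correlation of log2 CPM (the read count of a gene scaled to a common library size) between any pair of libraries lay between 0.92 and 0.99. The 10 genes were well covered, from 147 reads for Nr3c2 in the library with the fewest to 83459 reads for Hspa8 in the library with the most. Markers of neurons, oligodendrocytes, astrocytes and microglia were present in every library. Of 3 sensory ganglion markers 1 was in the table, at no more than 1.99 CPM. The summed skeletal muscle markers (4 of 4 in the table) ran from 2.45 to 120 CPM in Late_SAFit2 and from 2.02 to 4.19 CPM in Late_Vehicle. Summed Schwann cell markers (2 of 2 in the table) ran from 0.89 to 2662 CPM in Late_SAFit2 and from 533 to 1247 CPM in Late_Vehicle. In 3 vehicle libraries, Early_Vehicle replicates 4 and 5 and Late_Vehicle replicate 6, the share of reads from the small RNA gene Bc1 or from mitochondrial genes stood apart from their group. In whole tissue, fewer cells of a type and less RNA per cell cannot be told apart.

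Promoter windows from RefSeq (GRCm38.p6) were at hand for 6 of the 10 genes, namely Nr3c2, Hsp90b1, Ptges3, Stip1, Cdc37 and Ahsa1. The 250 bases before each RefSeq start site were searched on both strands for 5 motifs. GENCODE M21 places other transcript starts farther upstream, so that the windows of 5 of the 6 (all but Stip1) overlap the gene as annotated there, and that of Nr3c2 lies wholly inside it. These were the heat shock element pairs GAANNTTC and TTCNNGAA, the glucocorticoid response element core ACANNNTGT, the ER stress element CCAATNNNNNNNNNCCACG and the CCAAT box, which lies inside the ER stress element. Hsp90b1 is shown with Hspa5, the Hsp70 of the endoplasmic reticulum, because both hold the rarest of these motifs, and Nr3c2 and Cdc37 are shown because they held the heat shock pairs. Capitals mark the ER stress element in the first pair of sequences and the heat shock pair in the second. Each is written 5′ to 3′ in the direction of transcription and stops where an annotated untranslated region begins, and of Hspa5, whose element lies within such a region, the element alone is shown.

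Hsp90b1, chr10:86705510-86705694, minus strand: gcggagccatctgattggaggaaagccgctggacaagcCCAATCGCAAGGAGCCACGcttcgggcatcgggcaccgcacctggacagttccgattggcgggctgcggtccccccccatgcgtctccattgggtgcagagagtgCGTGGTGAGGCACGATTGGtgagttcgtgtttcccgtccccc
Hspa5, chr2:34772025-34772043, plus strand: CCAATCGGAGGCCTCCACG
Nr3c2, chr8:76902080-76902287, plus strand: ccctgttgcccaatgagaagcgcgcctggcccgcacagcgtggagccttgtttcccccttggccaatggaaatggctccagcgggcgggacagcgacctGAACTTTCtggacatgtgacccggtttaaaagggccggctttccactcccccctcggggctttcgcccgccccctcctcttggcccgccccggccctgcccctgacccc
Cdc37, chr9:21149983-21150184, minus strand: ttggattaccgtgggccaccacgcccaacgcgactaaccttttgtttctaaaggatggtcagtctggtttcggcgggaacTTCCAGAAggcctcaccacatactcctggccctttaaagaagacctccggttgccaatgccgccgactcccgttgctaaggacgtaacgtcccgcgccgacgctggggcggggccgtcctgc

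Counted back from the start site, the ER stress element of Hsp90b1 lay at -212 to -194 on the transcribed orientation and at -107 to -89 on the opposite strand, and that of Hspa5 at -65 to -47. Only 0.113% of the 32851 windows held such an element. Among 15 chaperones and folding enzymes of the endoplasmic reticulum, 13 had a window and 6 of these held it (Calr, Canx, Creld2, Dnajc3, Hspa5 and Pdia6). The heat shock pair of Nr3c2 lay at -151 to -144 and that of Cdc37 at -170 to -163. These short pairs occur in 6.69% and 7.17% of all windows. The glucocorticoid element core, held by 5.84% of windows, was not among the letters of any of the 6 windows of the set. CCAAT boxes, held by 33.8% of windows, stood in those of Nr3c2, Hsp90b1, Stip1 and Cdc37.

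Levels were first compared between the genes. Divided by the length of all annotated exons, expression spanned from 9.44 log2 CPM per kb for Hspa8 down to 1.74 for Nr3c2. The abundant cytosolic chaperones came first, with Hspa8 followed by Hsp90ab1 at 9.43 and Hsp90aa1 at 9.06. Hsp90b1 and Stip1 shared 7.32 log2 CPM per kb, and Ahsa1 (5.29) and Ptges3 (5.14) came next. Cdc37 (3.89) and the glucocorticoid receptor Nr3c1 (3.65) stood above the mineralocorticoid receptor.

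Neighbours in this order often differed by less than the spread of their difference between libraries. Hspa8 and Hsp90ab1 differed by 0.02 ± 0.12 (SD over 22 libraries, log2 CPM per kb), Hsp90b1 and Stip1 by 0.01 ± 0.35, Ahsa1 and Ptges3 by 0.16 ± 0.30, and Cdc37 and Nr3c1 by 0.24 ± 0.44. The first of each pair was above in 12, 10, 17 and 15 of 22 libraries, in that order. The lead of Hsp90ab1 over Hsp90aa1, 0.36 ± 0.37, held in 17 of 22 libraries and also stayed within its spread. By contrast Nr3c1 was above Nr3c2 in 22 of 22 libraries, by 1.91 ± 0.39, and Hsp90aa1 was above Hsp90b1 in 22 of 22, by 1.74 ± 0.15. The order was the same with the longest transcript or with coding transcripts alone as length. The distances were not the same, since Ahsa1 stood at 6.25 and 6.96 log2 CPM per kb with those lengths. With coding transcripts, a length chosen after seeing the data, Cdc37 and Nr3c1 (0.07 ± 0.44) were the only neighbours that stayed within their spread.

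**Figure D1:**
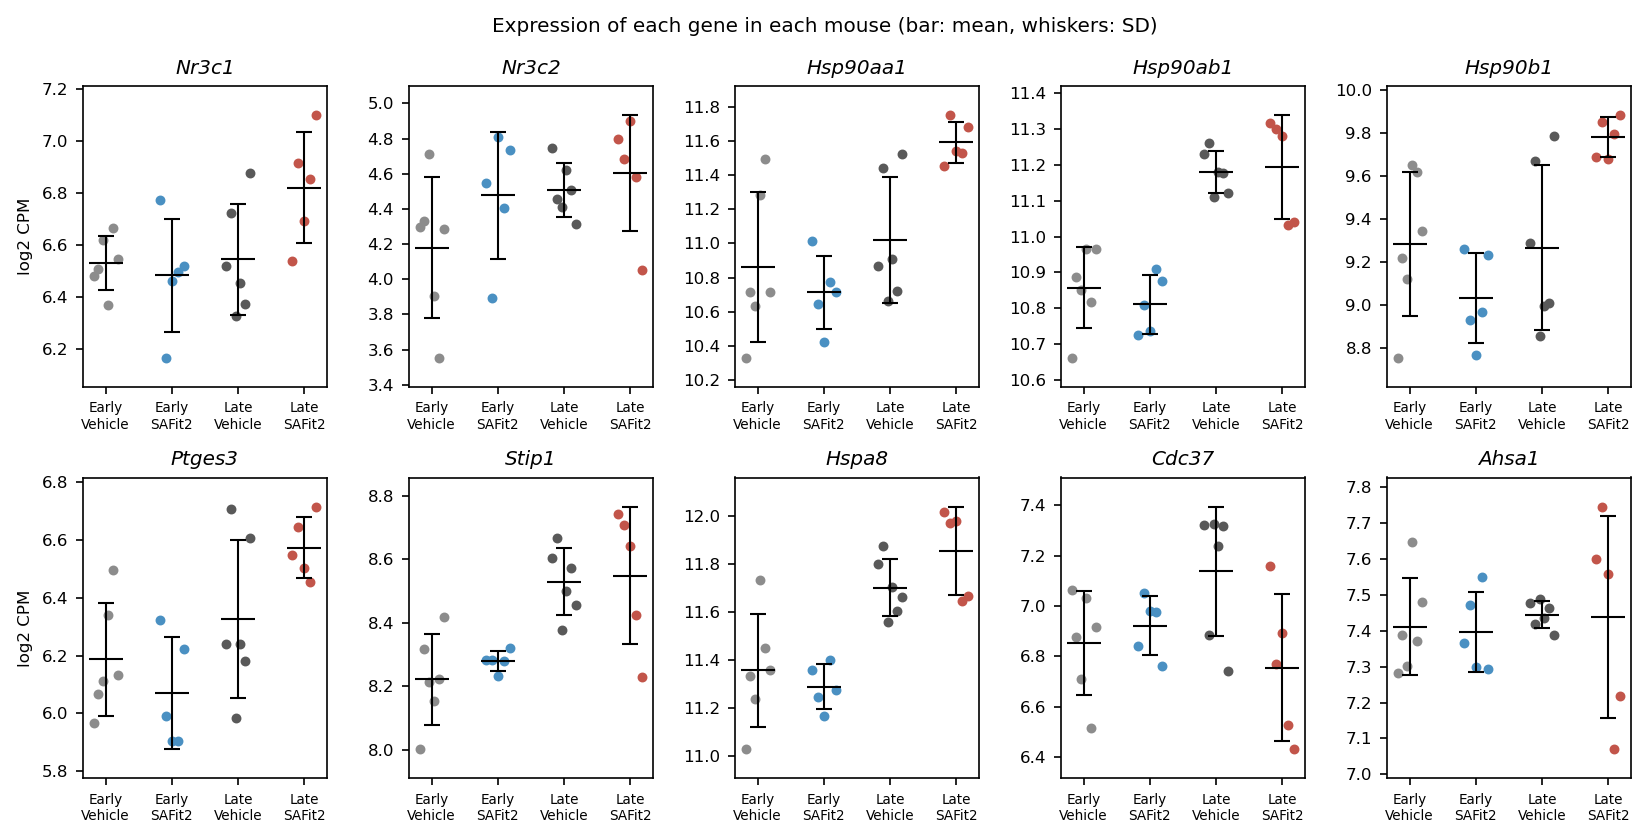
Log2 CPM of each of the 10 genes (1 panel per gene, each with its own vertical axis) in every mouse of the 4 groups, where points are mice, the bar is the group mean and the whiskers are the SD. Hsp90aa1 and Hsp90b1 were highest in Late_SAFit2. In Hsp90ab1 every Late_Vehicle mouse was above every Early_Vehicle mouse (at least 11.11 against at most 10.97), and 4.92% of all genes had vehicle groups that did not overlap.

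The late comparison asked what SAFit2 changed when it was given after the MIA model was established. Of the 10 genes, 2 passed the test, adjusted p under 0.05 and at least a 1.2-fold change, and both were higher in Late_SAFit2 than in Late_Vehicle. These were the stress-inducible cytosolic Hsp90aa1 (chr12:110690605-110702728, minus strand, GRCm38; 1.49-fold) and the endoplasmic reticulum Hsp90b1 (chr10:86690209-86705509, minus strand; 1.43-fold). The constitutive Hsp90ab1 was at 1.01-fold. No receptor and no co-chaperone passed. The 2 of 10 stand beside 12.1% of all genes tested that passed the same rule.

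The Late_SAFit2 values of Hsp90aa1 were 11.46, 11.53, 11.54, 11.68 and 11.75 log2 CPM, and the Late_Vehicle values ran from 10.66 through a median of 10.89 to 11.52. In Late_SAFit2, 4 of 5 mice were above every vehicle mouse, and the groups overlapped through Late_Vehicle replicates 6 (11.52) and 2 (11.44). The mean was 11.59 ± 0.12 (SD, n = 5) against 11.02 ± 0.37 (SD, n = 6). The log2 fold change was 0.57 (SE 0.19, 95% confidence interval 0.19 to 0.95), with an adjusted p of 0.046 in limma and 0.0173 by two-sided exact permutation.

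For Hsp90b1 the Late_SAFit2 values were 9.68, 9.69, 9.79, 9.85 and 9.88 log2 CPM. The Late_Vehicle mice ran from 8.86 through a median of 9.15 to 9.79. The same 2 vehicle mice were the highest, replicate 6 at 9.79 and replicate 2 at 9.67, and 3 of 5 treated mice were above all vehicle mice. The log2 fold change was 0.51 (SE 0.16, 95% confidence interval 0.18 to 0.85), with an adjusted p of 0.044 in limma and 0.0238 by two-sided exact permutation. Exons of Hsp90b1 overlap 1810014B01Rik on the opposite strand, also in the table, and how the counting treated strand is not given in the sources used here.

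The other 8 genes did not pass. Nr3c1 had 6.54, 6.69, 6.85, 6.92 and 7.10 log2 CPM in Late_SAFit2 and 6.33, 6.49 (median) and 6.88 (highest) in Late_Vehicle. Its groups overlapped, with 2 of 5 treated mice above every vehicle mouse, and its log2 fold change was 0.27 (SE 0.12, adjusted p = 0.099). Cdc37 had 6.43, 6.53, 6.77, 6.89 and 7.16 log2 CPM against 6.74 to 7.32 with a median of 7.28. Its log2 fold change was -0.38 (SE 0.13), with an adjusted p of 0.054, and the only other negative value was that of Ahsa1 (-0.01). Nr3c1 and Cdc37 had an unadjusted p under 0.05 (0.026 and 0.0076 in limma), so that 4 of 10 passed the unadjusted threshold, beside 34.5% of all genes.

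Ptges3, the p23 co-chaperone, was at a log2 fold change of 0.25 (95% confidence interval -0.01 to 0.50). Hspa8, the constitutive Hsp70, was at 0.15 (-0.11 to 0.42) and Nr3c2 at 0.10 (-0.29 to 0.48). The intervals of Stip1 (-0.18 to 0.22), Hsp90ab1 (-0.20 to 0.22) and Ahsa1 (-0.22 to 0.21) were centred near 0. True changes anywhere inside these intervals were compatible with these data. A named pseudogene of Ptges3, Ptges3-ps, has its own row in the table, and Hspa8 hosts small nucleolar RNAs on its own strand, so that reads of both could have been divided in the counting. For all 10 genes the Late_SAFit2 and Late_Vehicle values overlapped, as they did for all but 1.71% of the genes tested.

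The treated mice did not all stand alike. Late_SAFit2 replicates 4 and 5 had 11.03 and 11.04 log2 CPM of Hsp90ab1, below every vehicle mouse, while the other 3 had 11.28 to 11.32, above every vehicle mouse. Ahsa1, which drives the Hsp90 ATPase, showed the same 2 mice below (7.07 and 7.22) and the same 3 above (7.56 to 7.75) the vehicle range of 7.39 to 7.49. In Hspa8 the pair had 11.64 and 11.66 log2 CPM and the other 3 had 11.97 to 12.01. Hsp90aa1 did not part these mice, at 11.53 and 11.68 in the pair and 11.46 to 11.75 in the rest, nor did Hsp90b1. Replicates 4 and 5 also had the lowest slopes on GC content, a measure described further on, at -0.47 and -0.40. They had the highest Bc1 shares of their group, 8.81 and 16.5% against 3.31 to 5.14% in the other 3, and the fewest reads, 11352989 and 11503386. The part of these measures was not tested.

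Within a library, Hsp90aa1 could be set against its close relative Hsp90ab1, a comparison that the scaling of the library does not touch. The log2 ratio of Hsp90aa1 to Hsp90ab1 was 0.40 ± 0.20 (SD, n = 5) in Late_SAFit2 and -0.16 ± 0.36 (SD, n = 6) in Late_Vehicle. In the early groups it was -0.10 ± 0.23 and 0.00 ± 0.40. The 2 genes differ in GC content (43.7 and 51.0%), and after removal of each library's trend on GC content and length the late ratios were 0.19 ± 0.10 and -0.04 ± 0.14. The 2 genes are close paralogues, and reads that match both could have been divided between them in the counting.

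**Figure D2:**
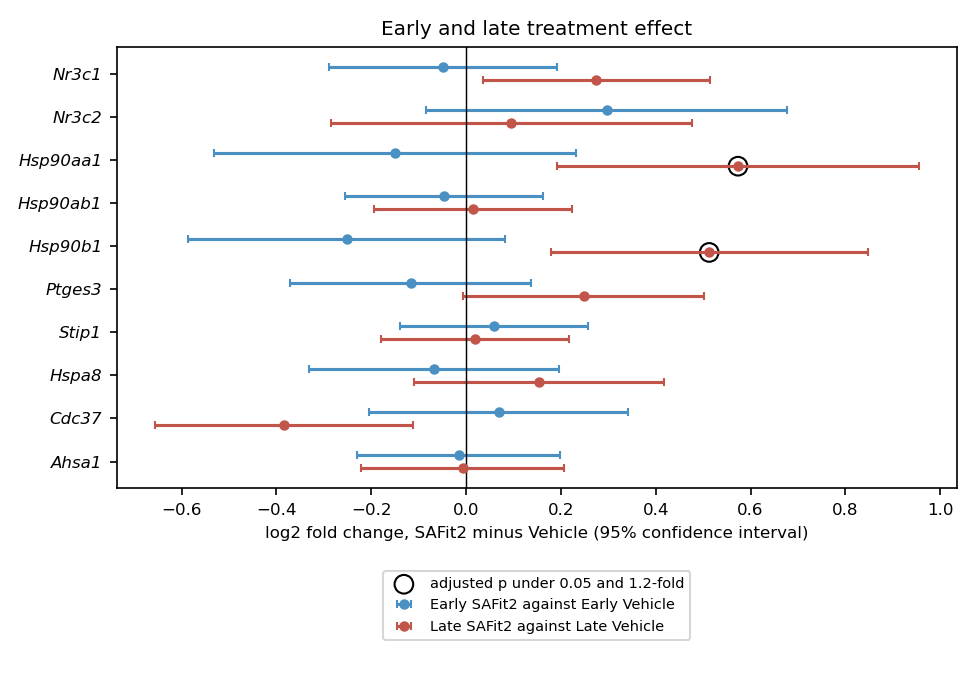
Log2 fold change of SAFit2 against Vehicle for each of the 10 genes (horizontal axis, points with 95% confidence intervals), in blue for early and in red for late mice, where an open black circle marks a gene past the adjusted threshold. Only the late values of Hsp90aa1 (0.57) and Hsp90b1 (0.51) are circled, and the early values of both lie below 0, where that of Hsp90aa1 does not stay without the 3 outlying vehicle libraries (0.11).

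The base composition of the libraries moved with the late comparison. The slope of a library's log2 CPM on the GC content of the genes, in log2 units per 10% GC, ran from -0.47 to -0.05 in Late_SAFit2 and from -0.32 to 0.49 in Late_Vehicle (exact permutation p = 0.0281). The 2 vehicle mice with high Hsp90aa1 and Hsp90b1, replicates 6 and 2, had slopes of -0.32 and -0.16, and the other 4 had 0.26 to 0.49. Of the 10 genes, Hsp90b1 (42.1% GC in its longest transcript), Nr3c1 (42.2%), Ptges3 (43.2%) and Hsp90aa1 (43.7%) had the lowest GC content and also the 4 highest late fold changes. Cdc37, Hsp90ab1 and Stip1, at 50.4 to 51.5% GC, had the highest GC content.

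After the trend on GC content and length had been removed from each library, no gene of the 10 passed the late test in limma, nor did any gene in the table. Hsp90aa1 was then at a log2 fold change of 0.37 (adjusted p = 0.214), Hsp90b1 at 0.24 (adjusted p = 0.296) and Cdc37 at -0.25 (adjusted p = 0.310), each with an unadjusted p under 0.05. Nr3c1 went from 0.27 to 0.03 and Ptges3 from 0.25 to 0.01. With the slope as a covariate the values were 0.02 for Hsp90aa1 and 0.00 for Hsp90b1. Both settings also remove any treatment effect that runs along GC content. The late calls further depended on single libraries: each was lost without any 1 of 13 of the 22, with adjusted p-values from 0.0516 to 0.126 for Hsp90aa1 and from 0.0501 to 0.125 for Hsp90b1.

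**Figure D3:**
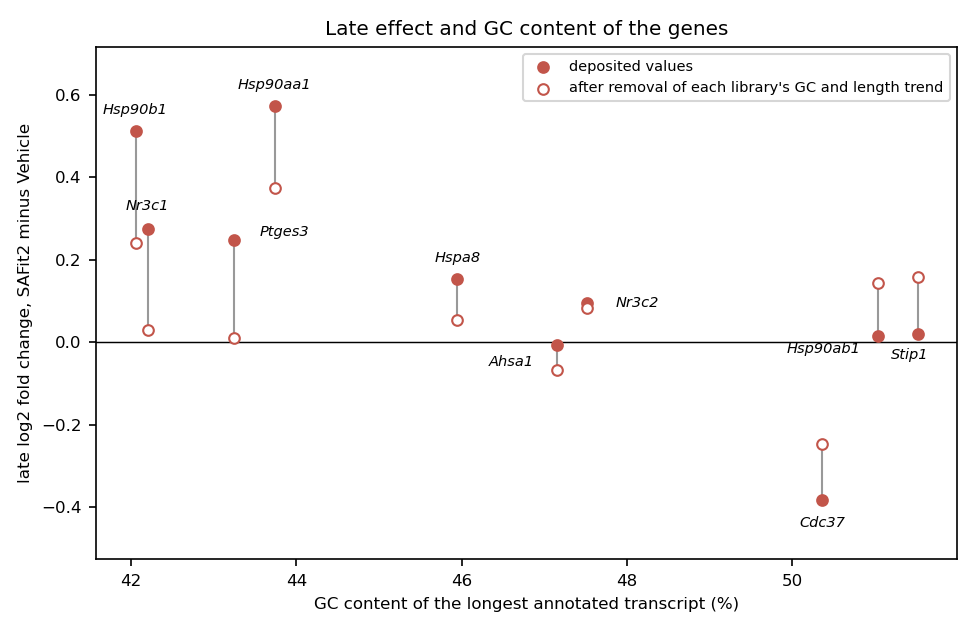
Late log2 fold change (vertical axis) of the 10 genes against the GC content of their longest annotated transcript in percent (horizontal axis), with filled points for the deposited values and open points for values after removal of each library's trend on GC content and length. The open points of the 4 genes below 44% GC lie lower than the filled ones, at 0.37 for Hsp90aa1 and 0.24 for Hsp90b1.

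The libraries left out were Early_Vehicle replicates 2, 3 and 6, Early_SAFit2 replicates 4 and 5, Late_Vehicle replicates 1, 3, 4 and 5 and Late_SAFit2 replicates 2, 3, 4 and 5. Over these 13 fits the log2 fold change stayed at 0.50 to 0.59 for Hsp90aa1 and 0.43 to 0.54 for Hsp90b1. Of all 16765 genes, 1 to 1500 passed in these 13 fits, beside 2021 as reported, so that calls fell over the whole table. Without Late_Vehicle replicate 6 or without Late_SAFit2 replicate 1, Nr3c1 (0.34, adjusted p = 0.0269 to 0.0434) and Cdc37 also passed. Cdc37 did so as well without Late_Vehicle replicate 2 or Early_Vehicle replicate 5, with an adjusted p from 0.0109 to 0.0403 over the 4 fits. Of all 16765 genes, 2914 to 4971 passed in those fits, beside 2021 in the analysis as reported. With the 3 vehicle libraries of outlying Bc1 or mitochondrial share left out together, a choice made after seeing the data, 5 of 10 passed, namely Nr3c1 (0.34), Hsp90aa1 (0.67), Hsp90b1 (0.62), Ptges3 (0.30) and Cdc37 (-0.46). In that setting 5813 of all 16765 genes passed, so that calls rose over the whole table. Bc1 took 3.31 to 16.5% of the reads in Late_SAFit2 and 1.32 to 7.55% in Late_Vehicle. Mitochondrial reads were 12.7 to 14.9% of a library in Late_SAFit2 and 6.82 to 13.9% in Late_Vehicle. The summed CPM of the 4 neuron markers, all in the table, was 4040 to 4421 and 3368 to 4099 in these groups. Single markers went both ways, with 2 of 4 positive, from Snap25 at 0.37 (unadjusted p = 0.0084 in limma) to Tubb3 at -0.51 (unadjusted p = 0.012), and a median log2 fold change of -0.05. The part of these shares and markers in the result was not tested.

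**Figure D4:**
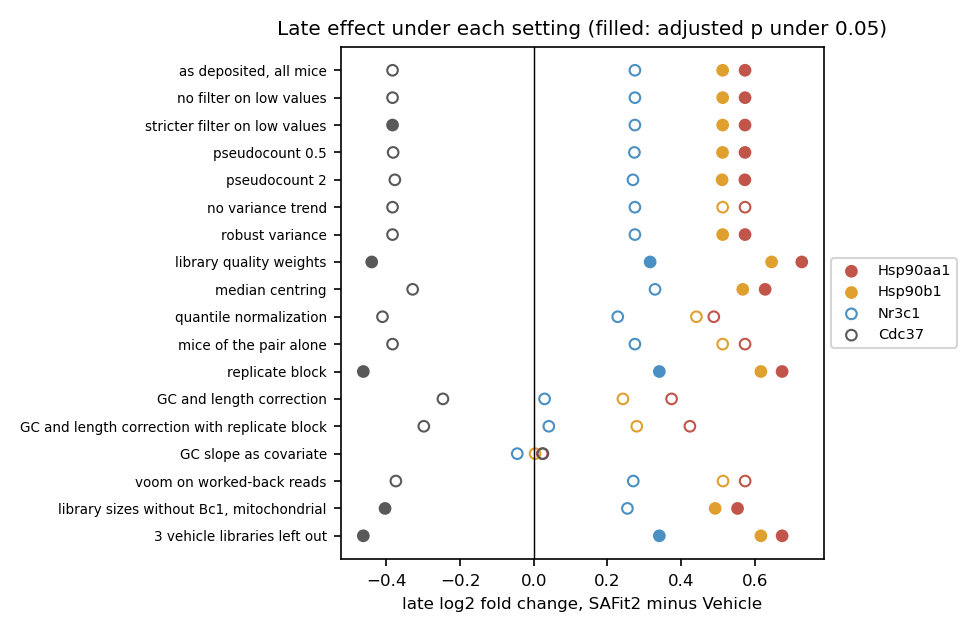
Late log2 fold change (horizontal axis) of Hsp90aa1, Hsp90b1, Nr3c1 and Cdc37 in the analysis as reported and under each of 17 other settings (rows), with filled points for an adjusted p under 0.05. Hsp90aa1 and Hsp90b1 stay above 0 throughout and reach 0.02 and 0.00 with the GC slope as a covariate, while Nr3c1 and Cdc37 cross 0 there.

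The early comparison asked what remained on day 30 of injections given around the time of MIA. No gene of the 10 passed in limma, and none had an unadjusted p under 0.05. Over all genes 0% passed the adjusted rule and 2.48% the unadjusted one. Hsp90aa1 had 10.42, 10.64, 10.72, 10.77 and 11.01 log2 CPM in Early_SAFit2 and 10.33, 10.71 (median) and 11.49 (highest) in Early_Vehicle. Every treated value lay inside the vehicle range. Its log2 fold change was -0.15 (95% confidence interval -0.53 to 0.23).

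Hsp90b1 had 8.77, 8.93, 8.97, 9.23 and 9.26 log2 CPM in Early_SAFit2 against 8.75 to 9.65 with a median of 9.28. All 5 treated mice were below the vehicle mean, yet inside the vehicle range, and the log2 fold change was -0.25 (-0.59 to 0.08). The highest early fold change of the 10 was that of Nr3c2 at 0.30 (-0.08 to 0.68). Its values were 3.89, 4.41, 4.55, 4.73 and 4.81 log2 CPM in Early_SAFit2 and 3.55 to 4.71 with a median of 4.29 in Early_Vehicle. Stip1 was the tightest, with 8.23 to 8.32 log2 CPM in the 5 treated mice. Log2 fold changes of the other 7 genes ranged from -0.12 for Ptges3 to 0.07 for Cdc37. The early groups of all 10 overlapped, and 0.352% of all genes had early groups that did not.

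These early values leaned on a few vehicle libraries. Without the 3 outlying ones, of which 2 were Early_Vehicle, Hsp90aa1 was at 0.11, Hsp90b1 at -0.08 and Nr3c2 at 0.07, so that the sign of Hsp90aa1 turned and Nr3c2 was no longer the highest. Leaving out 1 library at a time gave -0.26 to -0.02 for Hsp90aa1, -0.36 to -0.18 for Hsp90b1 and 0.17 to 0.44 for Nr3c2. None passed in any of these fits.

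Whether early and late effects differed was tested directly. The adjusted test passed none of the 10 genes and 0% of all genes, while 4 of 10 had an unadjusted p under 0.05, beside 24.9% of all genes. Hsp90b1 had the largest difference, with an early effect lower than the late one by 0.76 on the log2 scale (95% confidence interval of the difference -1.24 to -0.29, adjusted p = 0.120 in limma, unadjusted exact permutation p = 0.0078). Hsp90aa1 differed by -0.72 (-1.26 to -0.18, adjusted p = 0.123) and Ptges3 by -0.36 (-0.72 to -0.00, adjusted p = 0.196). For Cdc37 the early effect was the higher one, by 0.45 (0.07 to 0.84, adjusted p = 0.146). Without Late_Vehicle replicate 6 the differences of Hsp90aa1 (-0.82, adjusted p = 0.0337), Hsp90b1 (-0.87, adjusted p = 0.0228) and Cdc37 (0.53, adjusted p = 0.0451) passed. Of all 16765 genes, 2513 passed in that fit, so that the change was not particular to these genes. After removal of the trend on GC content and length the differences were smaller, at -0.48 for Hsp90aa1, -0.44 for Hsp90b1, 0.25 for Cdc37 and -0.04 for Ptges3. With the GC slope as a covariate they were -0.11, -0.20, -0.00 and 0.02.

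The mean effect over both timings, which the study explored at an unadjusted threshold, passed none of the 10 genes in limma, while 13.2% of all genes had an unadjusted p under 0.05. The values ran from -0.16 for Cdc37 to 0.21 for Hsp90aa1 and 0.20 for Nr3c2. The adjusted p-values of the 10 lay between 0.432 and 0.955. Without Early_Vehicle replicate 5 or Late_Vehicle replicate 6, Hsp90aa1 (0.26 to 0.28) and Cdc37 passed the unadjusted threshold, and so did Cdc37 without Late_SAFit2 replicate 1 (-0.21 to -0.19 over these 3 fits). Nr3c2 (0.26 to 0.27) did so without Early_SAFit2 replicate 2 or Late_SAFit2 replicate 5. Of all 16765 genes, 2017 to 3780 passed the unadjusted threshold in these fits, beside 2215 in the analysis as reported.

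The vehicle groups differed in the days of the gel injections and in batch. Of the 10 genes, 2 passed and both were higher in Late_Vehicle, beside 9.11% of all genes tested. These were Hsp90ab1 (chr17:45567775-45573271, minus strand), the constitutive cytosolic Hsp90, and Stip1 (chr19:7020702-7039967, minus strand), which links Hsp70 to Hsp90. Hsp90ab1 had 11.11, 11.18 (median) and 11.26 log2 CPM in Late_Vehicle and 10.66, 10.87 and 10.97 in Early_Vehicle. The groups did not overlap, which held for 4.92% of all genes. The log2 fold change was 0.32 (SE 0.10, adjusted p = 0.037 in limma, exact permutation p = 0.0022, the smallest these groups can give).

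Stip1 had 8.38, 8.54 (median) and 8.67 log2 CPM in Late_Vehicle against a median of 8.22 and no more than 8.42 in Early_Vehicle, and 5 of 6 late mice were above every early one. Its log2 fold change was 0.31 (SE 0.09, adjusted p = 0.035 in limma). Hspa8 (0.34, adjusted p = 0.075) and Cdc37 (0.29, adjusted p = 0.159) had an unadjusted p under 0.05, which made 4 of 10, beside 24.3% of all genes. Nr3c1 (0.01) and Hsp90b1 (-0.02) were nearly level between the vehicle groups, with intervals of -0.21 to 0.24 and -0.34 to 0.30. Late_Vehicle mice were also the controls of the late comparison, so that both rest in part on the same libraries.

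The call of Hsp90ab1 was lost without any 1 of 9 libraries (adjusted p 0.0525 to 0.0830) and that of Stip1 without any 1 of 8 (0.0527 to 0.0816). For Hsp90ab1 these were Early_Vehicle replicates 1, 2, 3 and 5 and Late_Vehicle replicates 1 to 5. For Stip1 they were Early_Vehicle replicates 1, 3, 4 and 5 and Late_Vehicle replicates 1, 2, 4 and 5. In the fits that lost either call, 944 to 1531 of all 16765 genes passed. Without Early_Vehicle replicate 4, Hspa8 passed (0.42, adjusted p = 0.0251), and without Late_Vehicle replicate 6 so did Cdc37 (0.36, adjusted p = 0.0455). Of all 16765 genes, 1485 and 2482 passed in these fits, beside 1527 in the analysis as reported. After removal of the trend on GC content and length 6 of 10 passed, all higher in Late_Vehicle: Hsp90ab1 (0.36), Stip1 (0.34), Hspa8 (0.45), Ptges3 (0.32), Cdc37 (0.35) and Nr3c2 (0.41). Of all 16203 genes in that setting 3011 passed, 1974 of them higher, and the median log2 fold change of all genes was 0.08. With library sizes counted without Bc1 and mitochondrial genes neither Hsp90ab1 (0.21) nor Stip1 (0.19) passed.

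The wider pathway was read from 5 lists of related genes. Fkbp5, which encodes the target of SAFit2, was at a log2 fold change of 0.29 (SE 0.15, adjusted p = 0.173, exact permutation p = 0.0238) in late mice and 0.18 (SE 0.15) in early mice. Its mean effect was 0.23 (unadjusted p = 0.038 in limma, adjusted p = 0.359). Fkbp4 was at -0.25 (SE 0.11, adjusted p = 0.0997) in late mice and at 0.11 after the trend on GC content and length was removed.

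Among all 23 further Hsp90 paralogues and co-chaperones, the late test passed 1 higher gene and 3 lower ones, where 12.1% of all genes passed. Chordc1, a zinc-binding Hsp90 co-chaperone, was higher by 0.67 (adjusted p = 0.032). Ppp5c, a phosphatase bound to Hsp90 (-0.42, adjusted p = 0.042), Stub1, the ubiquitin ligase CHIP (-0.59, adjusted p = 0.048), and Unc45a, a myosin chaperone (-0.56, adjusted p = 0.046), were lower. The median of the list was 0.03, against -0.05 for all genes. In early mice none of the 5 lists had a gene past the adjusted test, nor did the difference between timings.

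Of 17 genes of the Hsp70 machinery, Hspa13 rose in late mice (0.52, adjusted p = 0.035). Bag6 (-0.60, adjusted p = 0.040) and the exchange factor Hspbp1 (-0.71, adjusted p = 0.032) fell, so that 3 of 17 passed beside the 12.1% of all genes. The stress-inducible Hspa1a, named after its value was seen, was at -0.82 (SE 0.35, adjusted p = 0.101). Of 18 genes of the heat shock response, 3 were called higher and 1 lower in late mice, again beside 12.1% of all genes. Beside Chordc1, which is also in this list, Dnaja1, an Hsp40 (0.47, adjusted p = 0.037), and the mitochondrial chaperonin Hspd1 (0.45, adjusted p = 0.038) rose. The medians of these lists were 0.12 and -0.07. With the trend on GC content and length removed no late call was made in any of the lists: Bag6 was at 0.01, Stub1 at -0.01 and Chordc1 at 0.18.

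The 15 chaperones of the endoplasmic reticulum, the compartment of Hsp90b1, gave 1 late call, the lectin chaperone Canx (0.42, adjusted p = 0.043), beside 12.1% of all genes, and a median of 0.08. Hspa5 was at 0.37 (SE 0.15, adjusted p = 0.090) in late mice and at -0.38 (SE 0.15, adjusted p = 1.00) in early mice. The difference of these effects was -0.75 (SE 0.21, adjusted p = 0.120, exact permutation p = 0.0040). The early and late effects on the GC slope of the libraries differed too, by 0.51 (exact permutation p = 0.0267), and its part was not tested. In early mice all 15 had a negative log2 fold change, 6 of them with an unadjusted p under 0.05 and none past the adjusted rule, and the median was -0.17 against 0.01 for all genes. Over all genes 2.48% had such a p. Hsp90b1, of the same compartment, was highest of its group in Early_Vehicle replicates 4 and 5, at 9.65 and 9.62 log2 CPM. Without the outlying vehicle libraries, these among them, its early log2 fold change went from -0.25 to -0.08. Values of the 15 without those libraries are not reported here. Medians of cell type markers went both ways in early mice. They were -0.20 for 4 astrocyte and -0.14 for 4 oligodendrocyte markers, none of them positive, and -2.17 for 4 ependymal markers, 1 of them positive. The ependymal markers were scarce, with sums of 13.8 to 23.2 CPM in Early_SAFit2 and 19.7 to 38.4 CPM in Early_Vehicle. Microglia (-0.12), motor neuron (-0.11) and oligodendrocyte precursor (-0.01) markers were also negative. Positive medians were those of neurons (0.05), excitatory (0.06) and inhibitory neurons (0.28), endothelial cells (0.06), red cells (0.09), Schwann cells (0.19) and skeletal muscle (0.34). The part of these markers in the result was not tested. Between the vehicle groups Calr (0.47), P4hb (0.49) and Cnpy3 (0.42) were higher in Late_Vehicle, with adjusted p-values of 0.0065, 0.0035 and 0.030. Over all genes 9.11% passed that comparison.

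Of the other steroid receptors, ligand enzymes and coregulators, 16 were tested. The late test called 1 of them, lower in Late_SAFit2, where 12.1% of all genes passed, and their median late log2 fold change was 0.11. The mean effect called 1 higher, the coactivator subunit Med1 (0.24, unadjusted p = 0.013 in limma), beside 13.2% of all genes. Hsd11b1, which regenerates active corticosterone, was at 0.17 (SE 0.16) in late and 0.18 (SE 0.16) in early mice and did not pass. It was higher in Late_Vehicle than in Early_Vehicle by 0.49 (adjusted p = 0.046) with no overlap of the groups, which held for 4.92% of all genes. Ncoa3, a coactivator, was lower there by -0.83 (adjusted p = 0.0002). In the vehicle comparison the co-chaperones Ttc4 (-0.73, adjusted p = 0.0003) and Ahsa2 (-0.54, adjusted p = 0.047) were also lower. These vehicle calls stand beside 9.11% of all genes.

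Finally the 10 genes were compared across libraries, with the group means removed. Pearson correlations over the 22 libraries ran from -0.84 between Cdc37 and Nr3c1 to 0.92 between Hsp90aa1 and Hsp90b1. Hsp90aa1 and Hsp90ab1, by contrast, were at 0.20. After removal of the GC and length trend the same 3 pairs were at -0.15, 0.85 and 0.64. These are descriptions, since all genes of a library share its depth and base composition.

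The 3 genes outside the set most like Hsp90b1 were Hnrnpc (r = 0.98), an RNA-binding protein, Pdia3 (0.98), an oxidoreductase of the endoplasmic reticulum, and Actr3 (0.95), an actin nucleator. For Hsp90aa1 they were Fbxw7 (0.96), a ubiquitin ligase subunit, Elavl4 (0.96), a neuronal RNA-binding protein, and Ggnbp2 (0.96). For Nr3c1 they were Cd164 (0.94), Golm2 (0.92) and Cpeb2 (0.91). For Nr3c2 they were Map3k13 (0.95), a kinase, Nrip1 (0.94), a nuclear receptor corepressor, and Rims1 (0.93), a presynaptic protein. With the trend on GC content and length removed, Hnrnpc and Pdia3 stayed in the list of Hsp90b1, Fbxw7 in that of Hsp90aa1 and Map3k13 and Rims1 in that of Nr3c2, while all 3 genes of Nr3c1 were replaced.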

How the data were processed

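The deposited table holds log2 CPM per gene for 22 libraries. Per the study's methods and the labels, paired reads from a directional kit were trimmed (Trimmomatic), aligned to GRCm38 (HISAT2), counted per gene with featureCounts and scaled for library composition by the authors. Tool versions and the strand setting of the counting are not given in the sources used here. Each value corresponded to a whole number of reads plus a prior count of 2 (100% of values within 0.02 reads), so depth could be worked back. The 22 libraries came from separate mice.

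Genes with at least -1 log2 CPM in 5 or more libraries were kept. One mean per group was fitted over all 22 libraries with limma 3.58.1 (R 4.3.3, variance trend), and p-values were adjusted over all 16765 genes by Benjamini-Hochberg. Genes were called at an adjusted p under 0.05 and a 1.2-fold change, the mean effect at an unadjusted p under 0.05 and the difference between timings at an adjusted p under 0.05. A value before a comparison of p is a log2 fold change. Single genes were also tested by two-sided exact permutation over mice. The fit was tested on simulated data. GC content and length came from GENCODE M21 (96.4% of genes).

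The genes and lists were chosen with earlier results of these data known. Named genes were the 10, Fkbp5, Fkbp4, Hspa5 and Hsd11b1, at most 3 called genes per list and direction, and the 3 genes most correlated with each of 4 of the 10. Alternatives were other filters, pseudocounts, variance models, scalings, library sizes, GC corrections, a replicate block, voom on the worked-back reads, subsets of mice and each library left out. Some genes of the lists are not reported here.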

Additional observations from a re-analysis of the deposited data

Results flagged for a closer look

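Across the 10 genes and 2 technical shares, 48 groups were examined for a sample far from the others, which chance gives in about 1 in 20 groups, and 3 stood out. None was a value of the 10 genes. The share of reads from Bc1, a small neuronal RNA, was 11.9% in Early_Vehicle replicate 4 against 0.942 to 4.28% in the other 5 mice of that group. It was 7.55% in Late_Vehicle replicate 6 against 1.32 to 3.43%. The mitochondrial share was 18.3% in Early_Vehicle replicate 5 against 7.18 to 10.1%. The same 3 mice were among the highest of their groups in Hsp90aa1, at 11.29, 11.52 and 11.49 log2 CPM, and the late results without them are given above.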

How the results depend on the processing

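In late mice 2 of the 10 genes were called as reported. The count was 0 with no variance trend, quantile normalization, the mice of the pair alone, voom on the worked-back reads, the GC and length correction, that correction with a replicate block and the GC slope as a covariate. Over all genes those settings called between 0 and 1231. It was 5 with library quality weights or without the 3 vehicle libraries of outlying Bc1 or mitochondrial share, and 4 with the replicate block. Of all 16765 genes, these settings called 6381, 5813 and 4219, beside 2021 as reported. The replicate numbers were not shown to pair the mice (correlations of deviations from -0.24 to 0.32, 2 of 10 over 0.1, and 1 of 10 pairs matching best), and the block takes nothing from the unpaired vehicle replicates 6. In 7 other settings the count was 2 or 3. Leaving out each library gave 0 to 4. In voom, adjusted p-values were 0.0502 for Hsp90aa1 and 0.0514 for Hsp90b1.

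The early count was 0 in 17 settings and 22 left-out libraries. The mean effect, 0 as reported, gave 4 with library weights, 1 with the replicate block, 3 without the 3 vehicle libraries and 0 to 2 with a library left out. Of all 16765 genes, it called 6396 with library weights, 3135 with the replicate block and 5251 without the 3 vehicle libraries. The difference between timings, also 0, gave 5 with library weights, 2 with the replicate block and 0 to 3 with a library left out. Of all genes, it called 5083 with library weights, 1785 with the replicate block and 2513 without Late_Vehicle replicate 6. The vehicle comparison, 2 as reported, gave 0 with quantile normalization or with library sizes without Bc1 and mitochondrial genes, 6 with the GC and length correction, 4 with the GC slope as a covariate and 0 to 3 with a library left out. Of all genes, it called 1164, 1770, 3011 (of 16203) and 2292 in the settings named, in that order. No paired analysis was possible because the block was the replicate number within a timing, which never holds mice of both vehicle groups.

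No called value changed sign. Among 1900 single values, 107 changed sign while uncalled in both fits, the largest being Hspa8, -0.28 in late mice with quantile normalization. Over all genes, late calls numbered 894 higher and 1127 lower, 1139 and 924 after median centring, 484 and 392 with voom, 62 in all with no variance trend and 6381 with library weights. Vehicle calls numbered 552 higher and 975 lower, 1198 and 816 after median centring, 1974 and 1037 with the GC and length correction, and 144 and 1626 with library sizes without Bc1 and mitochondrial genes, which moved the median of all genes from 0.01 to -0.10. The causes were not tested. Nr3c2, with 147 reads in 1 library, was the least deeply covered of the 10 genes.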
